A study of Mus musculus with 4 samples.

Results

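Trp53, its inhibitors Mdm2 and Mdm4, and 7 classical p53 target genes were read in mouse medulloblastoma cells labelled Trp53-/-, to see which targets were expressed and which differed after Hedgehog pathway inhibition. The members were chosen by name, and all 10 were found by their Ensembl identifier among the 55573 genes of the deposited table. The cells, named SmoWT, are of the Sonic Hedgehog subtype, derive from spontaneous tumours of Ptch1+/-, Trp53-/- mice on the C57BL/6 strain, and were grown as neurospheres. Both groups share this genotype. The control group of 2 libraries received the solvent DMSO, and the treated group of 2 libraries received GDC0449 (vismodegib, an inhibitor of Smoothened) at 0.1 µM, each for 24 h. No source used here says whether the 2 libraries of a group came from separate cultures, so the p-values below rest on differences between libraries that may be technical alone. The design has no group with intact Trp53, so a level cannot be read as gained or lost through the absence of p53.

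The p53 protein is a transcription factor that is kept scarce in unstressed cells by Mdm2, a ubiquitin ligase, and held inactive by the related protein Mdm4. DNA damage and other stresses release it, and it then switches on genes of growth arrest, repair and cell death, and also Mdm2 itself, which closes a feedback loop. It binds DNA as a tetramer at pairs of a short half-site. Many of its targets have other activators as well, and loss of p53 is a known partner of Ptch1 loss in mouse medulloblastoma.

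RefSeq promoter windows (GRCm38.p6, from 250 bases before to 50 after a gene start) were found for 8 of the 10 genes. Zmat3 and Trp53inp1 had no entry. The windows were searched on both strands for the p53 half-site consensus, because these genes were chosen as p53 targets. At least 1 match was present in 5 of the 8 genes (Aen, Ccng1, Gadd45a, Mdm2 and Trp53), beside 9 of 22 other p53 targets (40.9%) and 9.55% of the 27025 genes with a window. These matches are shown in capitals in the strand of the gene. The sequences are the 250 bases before the Mdm2 start (chr10:117710759-117711008, minus strand), 225 bases before that of Ccng1 (chr11:40755312-40755536, minus strand) and the 103 bases between the Wrap53 and Trp53 transcripts (chr11:69580256-69580358, plus strand). For Gadd45a (chr6:67037428-67037457, minus strand) and Aen (chr7:78895927-78895956, plus strand), where the match lies in an annotated exon, 30 bases are shown.
Mdm2: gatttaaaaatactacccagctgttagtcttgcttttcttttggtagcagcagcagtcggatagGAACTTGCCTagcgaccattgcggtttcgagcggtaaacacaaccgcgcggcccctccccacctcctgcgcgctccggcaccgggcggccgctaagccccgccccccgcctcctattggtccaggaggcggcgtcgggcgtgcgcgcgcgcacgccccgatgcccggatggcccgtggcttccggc
Ccng1: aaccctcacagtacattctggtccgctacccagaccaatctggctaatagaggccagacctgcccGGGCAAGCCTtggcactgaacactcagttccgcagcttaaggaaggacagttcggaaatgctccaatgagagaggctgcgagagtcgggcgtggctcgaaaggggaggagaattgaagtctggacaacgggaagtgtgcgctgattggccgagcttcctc
Trp53: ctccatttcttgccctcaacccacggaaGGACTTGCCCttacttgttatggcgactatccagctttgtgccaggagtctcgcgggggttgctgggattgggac
Gadd45a: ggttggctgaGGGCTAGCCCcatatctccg
Aen: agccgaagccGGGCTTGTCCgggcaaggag

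A pair of half-sites, searched as the half-site repeated, with a spacer of 0 to 13 bases was in none of the 8 genes' windows and in 0.074% of all genes. Cdkn1a, the p21 gene and the best known arrest target of p53, held such a pair (chr17:29090729-29090975, plus strand) and is printed for comparison.
Cdkn1a: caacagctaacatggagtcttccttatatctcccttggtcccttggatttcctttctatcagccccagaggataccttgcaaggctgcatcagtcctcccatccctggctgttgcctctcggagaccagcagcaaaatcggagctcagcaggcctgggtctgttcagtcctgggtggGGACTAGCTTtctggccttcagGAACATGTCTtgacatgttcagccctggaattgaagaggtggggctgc
The Gli consensus GACCACCCA and the Atf4 composite element TGATGNAA were in none of the 8 genes' windows, beside 0.289% and 4.51% of all genes. At such low shares 8 genes are too few for the absence of a match to tell anything. The matches describe these windows only. They are exact matches to the consensus, so a half-site that departs from it at any base was neither counted nor put in capitals. This also holds for the bases that follow the second match in Cdkn1a. The response elements that p53 is known to use in Mdm2 lie in its first intron.

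The libraries held 16329721 to 20790030 reads in genes, which puts the floor of 3 reads at 0.144 to 0.184 CPM. CPM here are counts scaled by library total and TMM factor, and the floor covers counting error only. Of 12 marker genes of the labelled tumour and its granule neuron progenitors, 11 reached a mean of 1 CPM, Barhl1 being the exception, and Gli1 fell from 272 ± 12.9 to 35.7 ± 4.28 CPM (SD, n = 2; log2 fold change -2.93, edgeR adjusted p = 2.58e-34), as a check of the treatment. By the call rule given below, 3 of the 11 tested markers fell, Gli1 with the largest difference, beside 3.8% of all tested genes. Another 2 rose, Atoh1 at a log2 fold change of 0.81 and Neurod1 at 0.86, beside 8.62% of all tested genes. At adjusted p alone all 11 passed, 7 lower and 4 higher, beside 35.9% of all tested genes. Markers of other cell types were counted too. Summed CPM were 2.29 to 3.54 in DMSO and 1.47 to 1.71 in GDC0449 for 8 genes of microglia, 0.763 to 1.36 and 0.758 to 1.33 for 5 endothelial genes, and 2.17 to 2.64 and 2.42 to 2.84 for 6 fibroblast genes, with Kdr, Cdh5 and Lum at 0 reads. The 5 astrocyte markers summed to 83.2 to 91.6 and 192 to 197 CPM, mostly Slc1a2, with Aqp4 at 0, and the 5 oligodendrocyte markers to 65.8 to 66.2 and 82.9 to 84.4 CPM, with Mag at 0. The part of such cells in the levels below was not tested, and in bulk samples fewer cells of a type and less RNA per cell cannot be told apart.

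Most of the classical targets were expressed in these cells, as were most tested genes. The exceptions were Phlda3, which was not detected above the floor, and Eda2r, which was under 1 FPKM after the drug. At least 1 FPKM (fragments scaled by gene length and library depth, as deposited) was present in every library for 8 of the 10 genes and for 24 of 30 other p53 targets, beside 21.9% of all 55573 genes of the table and 73% of the tested genes. The 8 count Trp53, Mdm2 and Mdm4 along with targets. The 10 and 30 include 1 and 4 genes that were not tested. Mdm2 had the highest length-scaled level, at 45.4 and 43.7 FPKM in the DMSO replicates, which was above 92.8% of tested genes. Gadd45a, a stress gene whose product binds PCNA, followed at 27.4 and 29.8 FPKM, and Mdm4 at 26 and 28.7 FPKM, so these neighbours did not differ beyond their spread. Trp53 at 12 and 10.5 FPKM and Aen, which encodes a nuclease of apoptosis, at 10.8 and 10.1 FPKM overlapped as well.

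On FPKM the remaining 5 genes were in separate steps below these. Trp53inp1, which encodes a cofactor of p53 and of autophagy, was at 5.87 and 6.43 FPKM in DMSO. Ccng1, the gene of cyclin G1, was at 5.19 and 5.62 FPKM. Zmat3, the gene of an RNA-binding zinc finger protein, was at 3.49 and 4.53 FPKM, and Eda2r, a receptor gene of the TNF receptor family, at 2.22 and 2.72 FPKM, against 0.29 and 0.557 FPKM in the GDC0449 replicates. Phlda3, which encodes an inhibitor of Akt, had 0 reads in 3 libraries and 1 read in GDC0449 replicate 2, so its level lay under the floor in each. Levels as CPM per kilobase of merged exons kept Mdm2 first and Zmat3, Eda2r and Phlda3 last, but put Trp53 in place 2 and Gadd45a in place 4. In that unit Ccng1 was in place 5 at 8.13, above Aen at 7.69 and Trp53inp1 at 7.59 in DMSO. An antisense gene, E230016M11Rik, shares 19.1% of the exonic bases of Gadd45a.

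**Figure D1:**
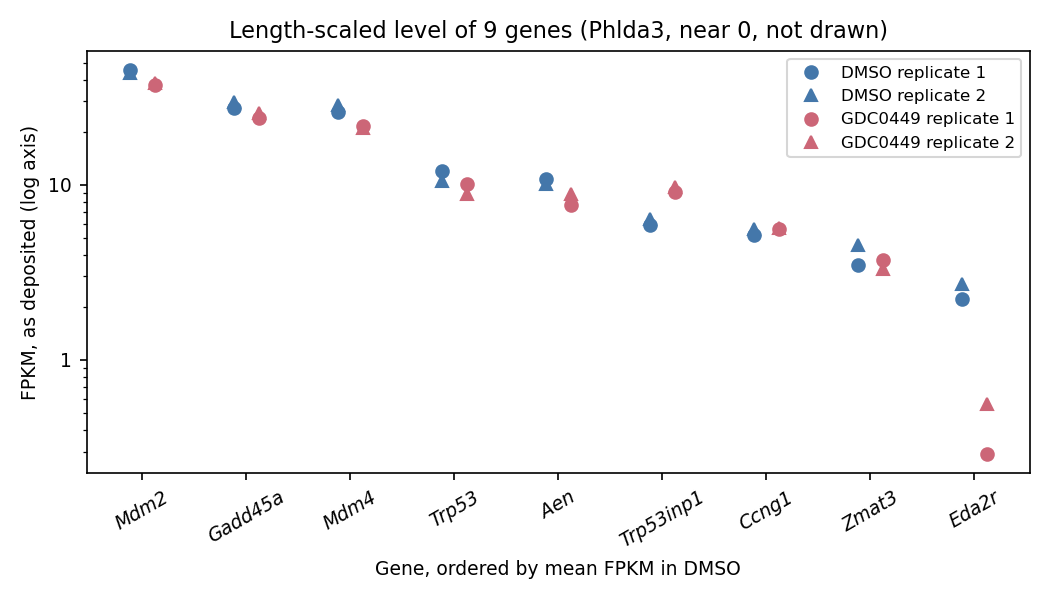
Deposited FPKM (log axis) of 9 genes, ordered by their mean in DMSO, with 1 point per library. Mdm2 is highest at 43.7 to 45.4 in DMSO, the Gadd45a and Mdm4 points overlap in DMSO only, and Eda2r is lowest, with both GDC0449 points under 1.

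After 24 h of GDC0449, 1 of the 9 tested genes fell, Eda2r by 5.01-fold, and 1 rose, Trp53inp1 by 1.55-fold. The other 7 were not called. Calls required a fold change over 1.5 and a p below 0.05 from edgeR's quasi-likelihood test after Benjamini-Hochberg adjustment, a rule that called 12.4% of 15472 tested genes (8.62% higher and 3.8% lower). Phlda3 did not pass the filter on low counts. The median log2 fold change of the 9 was -0.22, beside 0.01 over all tested genes. At adjusted p alone 6 of the 9 passed, 5 of them lower, beside 35.9% of all tested genes. The groups did not overlap in 8 of the 9 genes, beside 65.8% of all tested genes. Of the 8, 6 were lower, beside 32.2% of all tested genes, and 2 were higher, beside 33.6%. Separation of 2 against 2 libraries was thus common in this table.

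**Figure D2:**
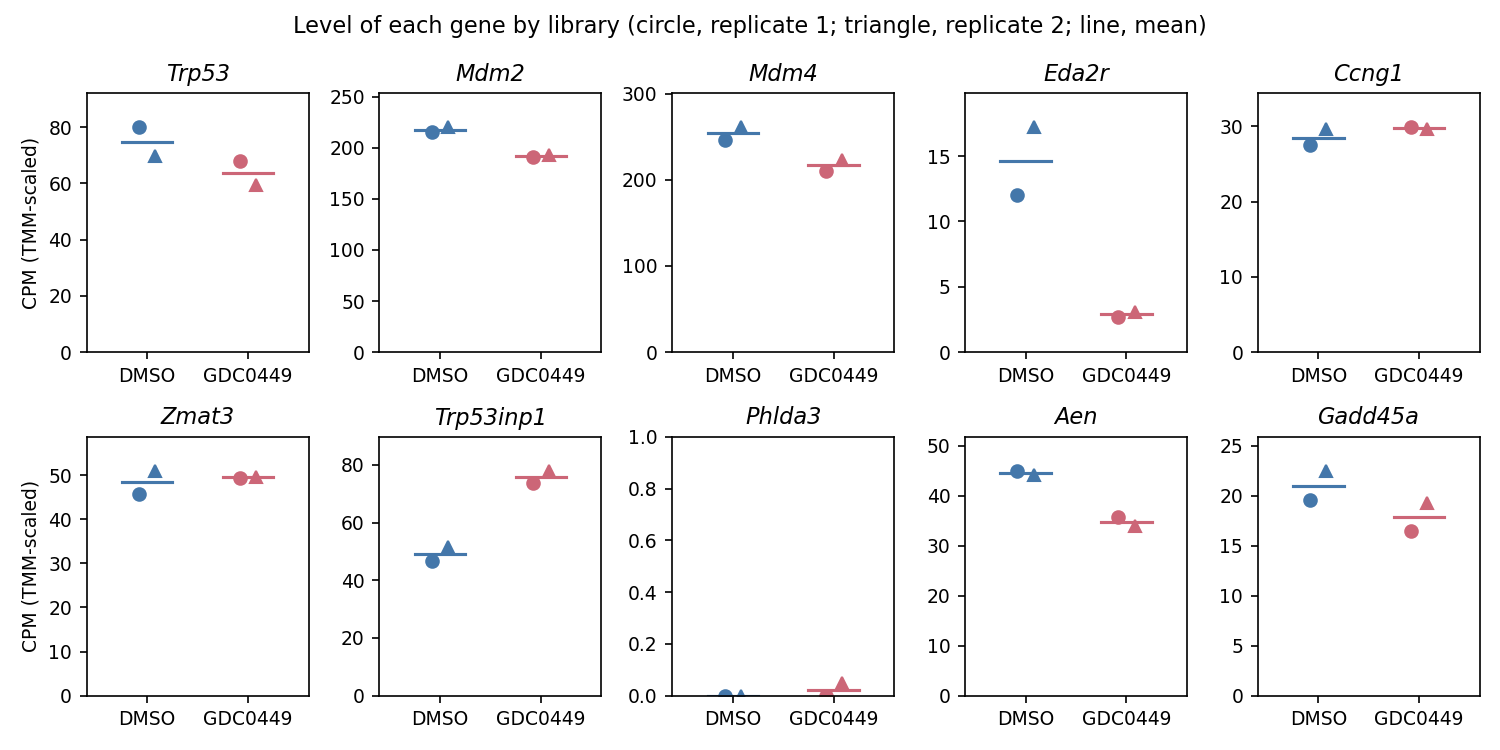
TMM-scaled CPM of each gene by library, with the group mean as a line and each axis starting at 0. Eda2r falls from 12 and 17.2 to 2.7 and 3.08 CPM and Trp53inp1 rises from 46.7 and 51.6 to 73.7 and 78 CPM, while the other tested genes differ by less than 1.5-fold.

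Trp53 itself (ENSMUSG00000059552, chromosome 11, 69580359 to 69591873) was read in every library, although the cells are labelled Trp53-/-. It had 1573 and 1123 reads in the DMSO replicates and 1437 and 1260 in the GDC0449 replicates, or 80, 69.6, 68.1 and 59.6 CPM. The labels do not say which allele was used, and gene-level counts cannot show from which exons the reads come, so they neither check nor contradict the genotype label. The 2 groups were separated by a narrow gap, and replicate 2 was the lower of each pair. The log2 fold change was -0.23 with a standard error (SE) of 0.08 (edgeR adjusted p = 0.0159), under the fold threshold and not called. Without DMSO replicate 1 it was -0.13 (adjusted p = 0.46) and without GDC0449 replicate 2 it was -0.14 (adjusted p = 0.367), within a range of 0.000146 to 0.46 over 12 alternatives.

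Wrap53, the gene that starts head to head with Trp53 on the other strand, shared no exonic bases with it in the annotation. It was at 25.9 and 25.5 CPM in DMSO and 21.6 and 23.7 CPM in GDC0449, with a log2 fold change of -0.19 that was not called (adjusted p = 0.145). The p53 relatives were scarce. Trp63 had 1, 0, 2 and 4 reads, and Trp73 had 4 and 1 reads in DMSO and 20 and 8 in GDC0449, and neither passed the filter for testing.

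Both Mdm genes were well expressed and slightly lower with the drug. Mdm2 (ENSMUSG00000020184, chromosome 10, 117688875 to 117710758) was at 215 and 220 CPM in DMSO and 191 and 193 CPM in GDC0449. Mdm4 (ENSMUSG00000054387, chromosome 1, 132959484 to 133030561) was at 246 and 261 CPM in DMSO and 210 and 223 CPM in GDC0449. In neither gene did the groups overlap. The log2 fold changes were -0.18 (SE 0.06, adjusted p = 0.0204) for Mdm2 and -0.23 (SE 0.06, adjusted p = 0.00275) for Mdm4, both under the fold threshold, with adjusted p of up to 0.213 and 0.152 when 1 library was left out.

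Eda2r (ENSMUSG00000034457, chromosome X, 97333840 to 97377216), the receptor for the ectodysplasin isoform EDA-A2, showed the largest difference of the 9. It had 237 and 277 reads in DMSO and 57 and 65 reads in GDC0449, or 12, 17.2, 2.7 and 3.08 CPM. The DMSO replicates differed more from each other than the GDC0449 replicates did, yet the lower of them was well above both treated libraries. The log2 fold change was -2.33 with an SE of 0.18 (edgeR adjusted p = 1.28e-15). It was called under all 12 alternatives run, at log2 fold changes of -2.57 to -1.29 and adjusted p of 8.61e-43 to 0.0159. The value nearest 0 came from log2(FPKM + 1), a scale that understates changes of low genes.

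Trp53inp1 (ENSMUSG00000028211, chromosome 4, 11156431 to 11174379) was the gene that rose. It was at 46.7 and 51.6 CPM in DMSO and 73.7 and 78 CPM in GDC0449, with a wide gap between the groups. The log2 fold change was 0.63 with an SE of 0.08 (edgeR adjusted p = 2.35e-09), close to the fold threshold. It fell under that threshold without DMSO replicate 1, at 0.55 (adjusted p = 0.0371), without GDC0449 replicate 2, at 0.58 (adjusted p = 1.17e-06), and on log2(FPKM + 1), at 0.55 (adjusted p = 0.0171). Over the 12 alternatives the adjusted p ranged from 9.25e-26 to 0.0371. Its paralog Trp53inp2, an autophagy gene, rose as well, from 38.1 and 35.6 CPM to 68.9 and 67.7 CPM (log2 fold change 0.89, SE 0.08, adjusted p = 2.4e-13).

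The other 4 tested targets were not called. Aen (chromosome 7, 78895854 to 78911209) was at 45 and 44.2 CPM in DMSO and 35.7 and 33.9 CPM in GDC0449. Its log2 fold change of -0.36 passed the adjusted p at 0.000599 but not the fold threshold, and its adjusted p was 0.0789 and 0.0663 without DMSO replicates 1 and 2. Gadd45a (chromosome 6, 67035096 to 67037457) was at 19.6 and 22.5 CPM in DMSO and 16.5 and 19.3 CPM in GDC0449, a log2 fold change of -0.22 (adjusted p = 0.11). These groups lay close together without overlapping.

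Ccng1 (chromosome 11, 40748552 to 40755311), whose product recruits a phosphatase to Mdm2, was at 27.5 and 29.6 CPM in DMSO and 29.9 and 29.7 CPM in GDC0449. Zmat3 (chromosome 3, 32334792 to 32366014) was at 45.7 and 51 CPM in DMSO and 49.3 and 49.6 CPM in GDC0449, and its groups overlapped. The log2 fold changes were 0.06 (SE 0.09, adjusted p = 0.632) and 0.03 (SE 0.08, adjusted p = 0.779). The sign for Zmat3 turned without DMSO replicate 1, at -0.05, and on log2(FPKM + 1), at -0.14. These 2 genes were the nearest to 0 of the 9.

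**Figure D3:**
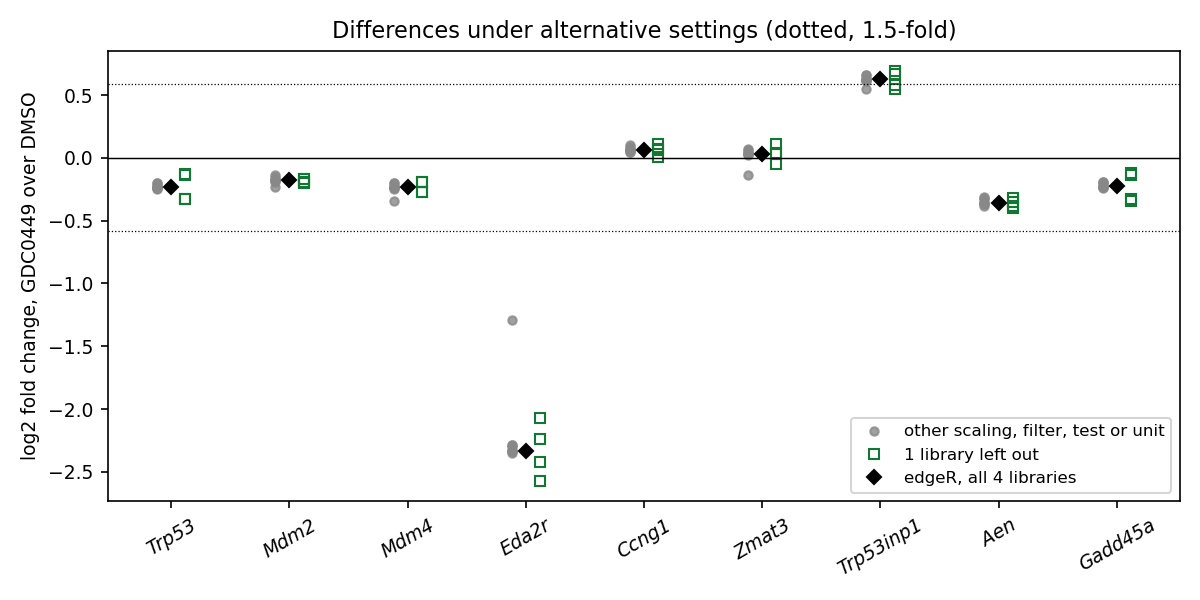
Log2 fold change of the 9 tested genes with edgeR on all 4 libraries (diamonds), under other scalings, filters, tests or units (grey circles) and with 1 library left out (open squares). Eda2r stays below the lower dotted 1.5-fold line at -2.57 to -1.29, Trp53inp1 straddles the upper line at 0.55 to 0.69, and the other 7 genes stay between the lines.

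Among the other p53 targets, Cdkn1a and Sesn2 fell and Sesn1 rose. Of 30 named, 26 were tested, 4 fell (Cdkn1a, Sesn2, Plk2 and the noncoding RNA Trp53cor1) and 1 rose (Sesn1). Their median log2 fold change was -0.14, beside 0.01 over all tested genes, of which 12.4% were called (8.62% higher and 3.8% lower). At adjusted p alone 13 of the 26 passed, 11 of them lower and 2 higher, beside 35.9% of all tested genes, of which 2779 were lower and 2778 higher. Cdkn1a fell from 59.4 and 56.1 CPM to 26.2 and 22.1 CPM (log2 fold change -1.26, SE 0.09, adjusted p = 7.33e-17). Plk2, a kinase gene, fell from 5.74 and 6.51 CPM to 2.51 and 2.56 CPM (-1.27, SE 0.21, adjusted p = 2.64e-06), and on log2(FPKM + 1) by less, at -0.60.

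The sestrin genes, whose products restrain mTORC1, moved in opposite directions. Sesn2 fell from 167 and 155 CPM to 46.5 and 42.7 CPM (-1.85, SE 0.07, adjusted p = 9.77e-27). Sesn1 rose from 42.1 and 40.8 CPM to 68 and 70.1 CPM (0.74, SE 0.08, adjusted p = 4.1e-11). Trp53cor1 (lincRNA-p21), which lies near Cdkn1a on chromosome 17, was scarce at 2.29 and 4.09 CPM in DMSO and 1.94 and 1.75 CPM in GDC0449. Its call (-0.76, SE 0.28, adjusted p = 0.0285) was lost without any 1 of the 4 libraries, at adjusted p of 0.0593 without DMSO replicate 1, 0.416 without DMSO replicate 2, 0.058 without GDC0449 replicate 1 and 0.118 without GDC0449 replicate 2, and also with DESeq2 at 0.202, over a range of 0.0175 to 0.416.

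Bax, Bbc3 and Apaf1, target genes known for roles in cell death, were tested and not called. Bax, which permeabilises mitochondria, was at 21.2 and 19.7 CPM in DMSO and 16.7 and 16.5 CPM in GDC0449, a log2 fold change of -0.30 under the fold threshold (adjusted p = 0.0242, and 0.00802 to 0.172 over the alternatives). Bbc3, the Puma gene, was at 13 and 12.6 CPM and then 11.9 and 11.3 CPM (adjusted p = 0.422). Apaf1, which forms the apoptosome, was higher, at a mean of 32.2 CPM in DMSO and 41.8 CPM in GDC0449, a log2 fold change of 0.38 (adjusted p = 0.000415) under the fold threshold. Pmaip1, the Noxa gene, had 0 reads in both DMSO libraries and 1 read in each GDC0449 library, and Fas had 0 reads in all 4, below the floor of 3 reads, so neither was tested. Ppm1d, the phosphatase that dampens p53 signalling, was at 30.7 and 30.6 CPM and then 28.6 and 29.8 CPM (adjusted p = 0.597).

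Of 23 matched p53 relatives and regulators 21 were tested, with 1 higher and 1 lower call and a median log2 fold change of -0.02. The same rule called 8.62% of all tested genes higher and 3.8% lower, so 2 of 21 was near the background. The riser was Trp53inp2, given above. The one that fell was Chek1, a replication checkpoint kinase gene, from 71.4 and 78.5 CPM to 45.4 and 48.7 CPM (-0.67, SE 0.08, adjusted p = 5.06e-10). Cdkn2a, which encodes both p16 and the Mdm2 inhibitor Arf, was abundant, at 127 and 109 CPM in DMSO and 158 and 145 CPM in GDC0449. Its log2 fold change of 0.35 (adjusted p = 5.15e-05, and 1.98e-14 to 0.132 over the alternatives) lay under the fold threshold, and the counts do not separate its transcripts. The relatives of Gadd45a were Gadd45g at 31.2, 27.7, 32.7 and 28.9 CPM (edgeR adjusted p = 0.643) and the scarce Gadd45b. Gadd45gip1, named as an interacting protein and not a paralog, was at 3.61, 3.78, 4.31 and 4.07 CPM (edgeR adjusted p = 0.537). Gadd45b rose from 0.763 and 0.62 CPM to 1.71 and 1.09 CPM (1.00, SE 0.40, edgeR adjusted p = 0.0462). Its call held in only 3 of the 10 alternatives in which it was tested. It was lost with relative log expression scaling (edgeR adjusted p = 0.0501), no count filter (edgeR, 0.145), limma-voom (0.06) and DESeq2 (0.315). Leaving out DMSO replicate 1, DMSO replicate 2 or GDC0449 replicate 1 also lost it, at log2 fold changes of 1.16, 0.86 and 0.64.

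Genes of the integrated stress response, in which the factors Atf4 and Ddit3 act on some of the same genes as p53, moved beside these results. Of 16 such genes 15 fell and 0 rose, beside 3.8% and 8.62% of all tested genes, and their median log2 fold change was -1.67, beside 0.01. The remaining one, Ddit4, an mTORC1 inhibitor gene, was higher, at a mean of 162 CPM in DMSO and 207 CPM in GDC0449 (log2 fold change 0.35, adjusted p = 2.1e-05), under the fold threshold. Sesn2 is on both lists, which were chosen with earlier results of these data known. Atf4 fell from 558 and 514 CPM to 262 CPM in both treated libraries (-1.04, adjusted p = 9.39e-20), Ddit3 from 246 and 230 CPM to 76.1 CPM in both (-1.65, adjusted p = 3.54e-26), and Trib3 from 210 and 194 CPM to 24 and 23.4 CPM (-3.09, adjusted p = 1.07e-34). Ppp1r15a fell from 147 and 140 CPM to 22.8 and 22.1 CPM (-2.68, adjusted p = 3.34e-32). The part of this response in the levels of Eda2r, Sesn2, Cdkn1a or any other p53 target was not tested.

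**Figure D4:**
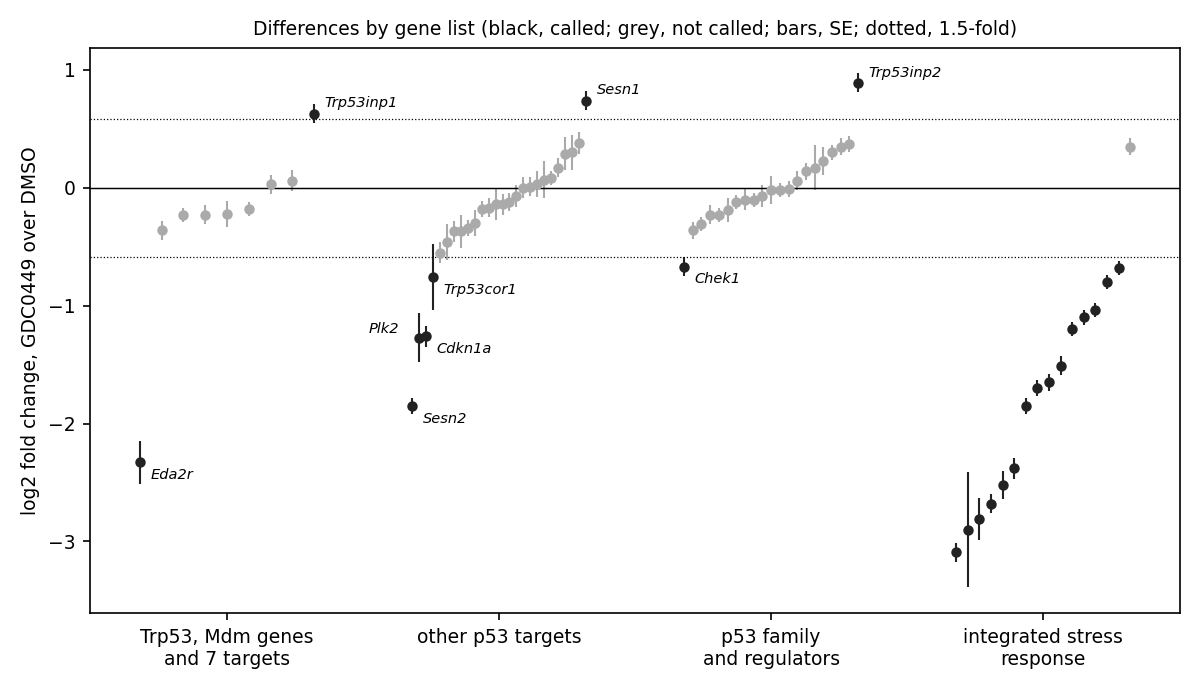
Log2 fold change of each tested gene with its SE, by list, with called genes in black and the 1.5-fold thresholds dotted. Of the 9 genes followed here only Eda2r at -2.33 and Trp53inp1 at 0.63 lie outside the thresholds, while 15 of 16 stress response genes lie below.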

How the data were processed

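Total RNA of 4 libraries was sequenced. Per the series' design text and the submitters' processing notes, reads were trimmed with Trim Galore, mapped to mm10 with HISAT2 and counted per gene with HTSeq 0.11.1. The authors' own calls, per that text, came from DESeq2 1.26.0 at 1.5-fold and a false discovery rate under 0.05, the thresholds kept here. Strand setting and annotation release are not stated there. Raw counts and FPKM values were both deposited by the authors, the latter scaled by gene length and depth per the design text, with no tool stated. Since 546 genes have 0 reads but at least 1 FPKM in all 4 libraries, both units cannot share 1 assignment of reads. Left out were 6 rows naming no gene. Reads in no gene made up 12.3% to 14.4%, ambiguous reads 4.73% to 4.91% and reads with several alignments 10.4% to 10.7%.

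Symbols, coordinates and exons came from GENCODE M21 (GRCm38, the build of mm10), which held 55480 of 55573 identifiers. The listed symbol Trp53rk had no match. The test was edgeR 4.0.16 (R 4.3.3) on all 4 libraries, with TMM scaling, the filterByExpr filter and group as the only term. SE is the log2 fold change over the square root of F. The fit gave a biological coefficient of variation of 4.82%, with 46 prior degrees of freedom. Replicates differed by more than sampling noise (chi-square per gene 3.95 and 3.17). Alternatives were other scalings, other filters, DESeq2 1.42.0, limma 3.58.1 (voom, and log2(FPKM + 1) for genes with a mean of at least 1 FPKM), a replicate block, no fold threshold and leaving out each library. The script was tested on simulated data. Genes named are the 10 members, fixed panels of each list and the called list members with the smallest p (up to 6, 4 and 3 for targets, regulators and stress genes). Fas, Apaf1, Ddit4, Gli1, Atoh1, Neurod1, Barhl1, Slc1a2 and markers at 0 reads were named after their values were seen. Members and lists were chosen with earlier results of these data known. No search for genes of like profile was made over 4 libraries.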

Additional observations from a re-analysis of the deposited data

How the results depend on the processing

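Eda2r kept its call under all 12 alternatives. The count of 2 called among the 9 tested genes became 1 on log2(FPKM + 1), 1 to 2 with 1 library left out and 6 at adjusted p alone. At adjusted p alone the 5 called of the other p53 targets became 13 and the 2 of the relatives and regulators 9. The 1921 genes called in all became 1165 with at least 5 CPM in 2 libraries, 1224 with DESeq2, 820 on log2(FPKM + 1), 5557 at adjusted p alone and 852 to 1711 with 1 library left out, 929 without DMSO replicate 1 and 852 without DMSO replicate 2. The genes tested numbered 10953 under the 5 CPM filter, 12873 on FPKM and 27853 with DESeq2, beside 15472 in edgeR on all 4 libraries. The cause of these differences in calls was not tested. The sign turned for 4 genes that were not called. On log2(FPKM + 1) these were Zmat3 at -0.14, Ppm1d at 0.25 and Gadd45gip1 at -0.07, and with 1 library left out Zmat3 ranged from -0.05 to 0.11 and Gadd45g from -0.03 to 0.15. With a replicate block the counts were 2 of the 9 genes and 2000 of all; same-numbered libraries share only a number, with a correlation of 0.0351 between their deviations over genes. Of 360 values of single genes under alternatives 331 kept their direction and side of the threshold, 17 lost a call (3 genes: Trp53inp1, Trp53cor1 and Gadd45b), 6 gained one at adjusted p alone and 6 changed sign. Depth limits Phlda3, Pmaip1, Trp63 and Trp73, which were not tested.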
